A study of Mus musculus with 27 samples.

Results

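Wnt proteins, the Frizzled receptors that bind them and 2 families of secreted Wnt antagonists were followed through the differentiation of 3 mouse pluripotent cell lines. The members were all genes whose single symbol in the array annotation is Wnt, Fzd, Dkk or Sfrp with a number (and, for Wnt, a letter a or b). This gave 37 of the 18193 genes measured: 19 Wnt ligands, 10 Frizzled receptors and 8 antagonists (4 Dkk and 4 Sfrp genes). R1 is a line of mouse embryonic stem cells. H9, called 3F here, and 19BL, called 4F, are lines of induced pluripotent stem cells obtained with 3 and 4 reprogramming factors. Each line was sampled undifferentiated (day 0), grown with leukemia inhibitory factor on inactivated feeder cells, and then at day 5 and day 11 as embryoid bodies, aggregates left to differentiate in medium with 20% serum and without that factor. The 9 groups held 3 arrays each, labelled as biological replicates. Each condition was sampled from 1 line, so a difference between 4F and 3F is one between these lines and cannot be told apart from the number of factors.

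Wnt proteins are secreted lipid-modified ligands that bind a Frizzled receptor, usually together with a co-receptor of the LRP family. In the canonical branch this stabilises beta-catenin, which then acts with TCF/LEF factors on target genes, while other Wnt proteins, Wnt5a and Wnt11 among them, are best known for signals through cell polarity and calcium. Dkk proteins act on the LRP co-receptors, and Sfrp proteins carry a Frizzled-like domain and bind Wnt proteins outside the cell. In the mouse embryo Wnt3 is needed to form the primitive streak, from which mesoderm and endoderm arise, and heart formation is known to need Wnt activity early and its restraint later.

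Levels are log2 signals made by RMA, and a difference of 1 is a 2-fold difference. Each gene was read on the probe set with its brightest mean, and levels are compared for 1 gene between groups, never between genes. Changes are followed by the standard error of a limma fit over all 27 arrays. The words rise, fall, higher and lower for a tested change, and the word called, are kept for at least 2-fold and a p adjusted over all genes (Benjamini-Hochberg) under 0.05. These are RNA levels of mixed cells, and fewer cells of a type cannot be told apart from less RNA per cell. Of the 37 members, 34 exceeded 5.375, the 40th percentile of all values, in at least 3 arrays. Wnt1, Wnt8b and Dkk4 did not. Of the members described array by array, Wnt3 exceeded this value on 6 of the 27 arrays, Wnt8a on 15 and Dkk2 on 18, and their fold changes are taken against such dim levels.

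The arrays carried the labels' cell state: the mean of 8 pluripotency markers was 11.9 to 12.2 at day 0 and 7.52 to 9.43 at day 11, the highest day 11 mean being that of 4F. Replicate 3 of 4F at day 5 stood apart for more members than any other array. For 10 of the 37 members it lay at least 2-fold outside both other replicates of its group, above them for 8, against 2.85% of all genes. Replicate 3 of R1 at day 5 did so for 5 members (2.38% of all genes) and replicate 1 of 3F at day 5 for 4 (0.407%). At day 11 replicate 1 of 3F and replicate 3 of 4F did so for 3 members each (7.22% and 2.07%). Member results that rest on replicate 3 of 4F at day 5 are given with and without it. An index of RNA quality, the 3′ minus 5′ signal of control probe sets, was 2.69 ± 0.23 (SD, n = 3) in 4F at day 11 and had group means of 1.09 to 1.94 elsewhere. Its part in the results for 4F at day 11 was not tested beyond the fit that holds it as a covariate.

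The promoter sequences of 6 members are shown because these genes carry the main patterns. Wnt3 and Dkk1 were high at day 5 in R1 and 3F. Wnt2, Fzd1 and Dkk2 were high at day 11, and Fzd5 fell in every line by day 5. Each sequence runs 5′ to 3′ over the 250 bases before a transcript start of the gene (RefSeq, GRCm38.p6). That start is the outer end of the gene as annotated, save for Dkk2, where it lies 26 bases inside the gene, and Wnt2, where it lies 2327 bases inside. Capitals mark matches to any of 3 motifs, each searched on both strands. The TCF/LEF core was searched with CTTTGA as one spelling and with CTTTGT as the other. The TATA box was searched as TATAAA. The CCAAT box was searched as CCAAT.
Wnt3, chr11:103773925-103774174, plus strand: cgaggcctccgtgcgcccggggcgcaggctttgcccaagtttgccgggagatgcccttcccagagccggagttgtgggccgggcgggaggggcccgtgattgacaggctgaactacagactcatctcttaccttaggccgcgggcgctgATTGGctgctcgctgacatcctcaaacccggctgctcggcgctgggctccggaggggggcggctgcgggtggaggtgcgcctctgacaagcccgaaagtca
Dkk1, chr19:30549497-30549746, minus strand: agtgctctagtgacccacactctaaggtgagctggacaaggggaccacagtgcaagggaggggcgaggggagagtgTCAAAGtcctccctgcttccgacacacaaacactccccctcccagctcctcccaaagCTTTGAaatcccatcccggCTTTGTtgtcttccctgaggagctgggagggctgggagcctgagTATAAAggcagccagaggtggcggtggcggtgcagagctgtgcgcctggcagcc
Wnt2, chr6:18030446-18030695, minus strand: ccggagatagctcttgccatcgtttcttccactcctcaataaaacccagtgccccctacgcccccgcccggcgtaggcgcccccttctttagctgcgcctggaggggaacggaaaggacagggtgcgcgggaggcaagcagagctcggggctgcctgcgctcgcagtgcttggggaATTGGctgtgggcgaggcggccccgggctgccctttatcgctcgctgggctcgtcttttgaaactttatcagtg
Fzd1, chr5:4758217-4758466, minus strand: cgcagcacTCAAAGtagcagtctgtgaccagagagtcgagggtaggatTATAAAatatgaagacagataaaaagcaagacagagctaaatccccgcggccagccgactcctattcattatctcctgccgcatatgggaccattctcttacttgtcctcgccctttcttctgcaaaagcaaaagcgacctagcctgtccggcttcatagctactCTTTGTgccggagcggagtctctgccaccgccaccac
Dkk2, chr3:132085042-132085291, plus strand: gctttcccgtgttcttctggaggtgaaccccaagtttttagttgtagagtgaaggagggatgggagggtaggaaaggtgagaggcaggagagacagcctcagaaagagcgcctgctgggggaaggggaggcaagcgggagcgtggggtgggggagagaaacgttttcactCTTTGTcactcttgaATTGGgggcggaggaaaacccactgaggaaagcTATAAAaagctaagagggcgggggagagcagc
Fzd5, chr1:64737751-64738000, minus strand: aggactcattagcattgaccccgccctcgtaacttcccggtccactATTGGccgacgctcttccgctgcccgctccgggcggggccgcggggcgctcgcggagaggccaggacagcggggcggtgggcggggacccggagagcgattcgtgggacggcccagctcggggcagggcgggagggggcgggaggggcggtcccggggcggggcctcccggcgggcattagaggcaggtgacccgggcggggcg
Dkk1 held 3 TCF/LEF cores, 174, 117 and 98 bases before that start, and a TATA box at 54. Fzd1 held cores at 242 and 37 and a TATA box at 202. Dkk2 held a core at 80, a CCAAT box at 65 and a TATA box at 32. Wnt3, Wnt2 and Fzd5 held no such core in this window and a CCAAT box each. Of the 23 members with a single listed start, 5 (21.7%) held a TCF/LEF core, against 27.6% of 32841 promoter windows of this length. TATA boxes were in 3 of the 23 members and 12.4% of all windows, and CCAAT boxes in 10 and 33.9%. A match describes the letters and no binding was measured.

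Across the 9 comparisons of days within a line, 21 of the 37 members changed at least once. Among all genes 41.9% did. In parentheses after each count of members is the share of all genes called the same way, and then the share called either way. From day 0 to day 5, 9 members rose (6.62%) and 3 fell (8.1%) in R1 (14.7% either way). In 3F, 7 members rose (5.04%) and 2 fell (7.4%, and 12.4% either way). In 4F, 5 members rose (2.25%) and 2 fell (4.82%, and 7.07% either way). From day 5 to day 11, 8 members rose (7.1%) and 4 fell (4.53%) in R1 (11.6% either way). In 3F, 9 members rose (6.16%) and 7 fell (10.8%, and 16.9% either way). In 4F, 6 members rose (6.66%) and 5 fell (9.16%, and 15.8% either way). From day 0 to day 11, 12 members rose (11.4%) and 2 fell (12.2%) in R1 (23.6% either way). In 3F, 10 members rose (7.55%) and 1 fell (16%, and 23.6% either way). In 4F, 9 members rose (6.72%) and 1 fell (14.1%, and 20.8% either way). As a description, the members' share of rises was above that of all genes in these 9 comparisons, and their share of falls was near or below it from day 0 and above it from day 5 to day 11. The median change of the members by day 11 was 0.33, 0.28 and 0.14, beside -0.04, 0.01 and -0.11 for all genes. Wnt3, Wnt5b and Fzd2 rose by day 5 in every line, as did 1.23% of all genes. Fzd5 and Dkk2 fell in every line, as did 2.57% of all genes. In 4F, though, the calls of Wnt3 and Wnt5b rested on replicate 3 of day 5. By day 11 Wnt2, Fzd1, Fzd2, Dkk2, Sfrp1 and Sfrp2 were above day 0 in all 3 lines, as were 3.56% of all genes. Only Fzd5 was below in all 3 lines, as were 8.03% of all genes. Comparisons of days within a line share samples.

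**Figure D1:**
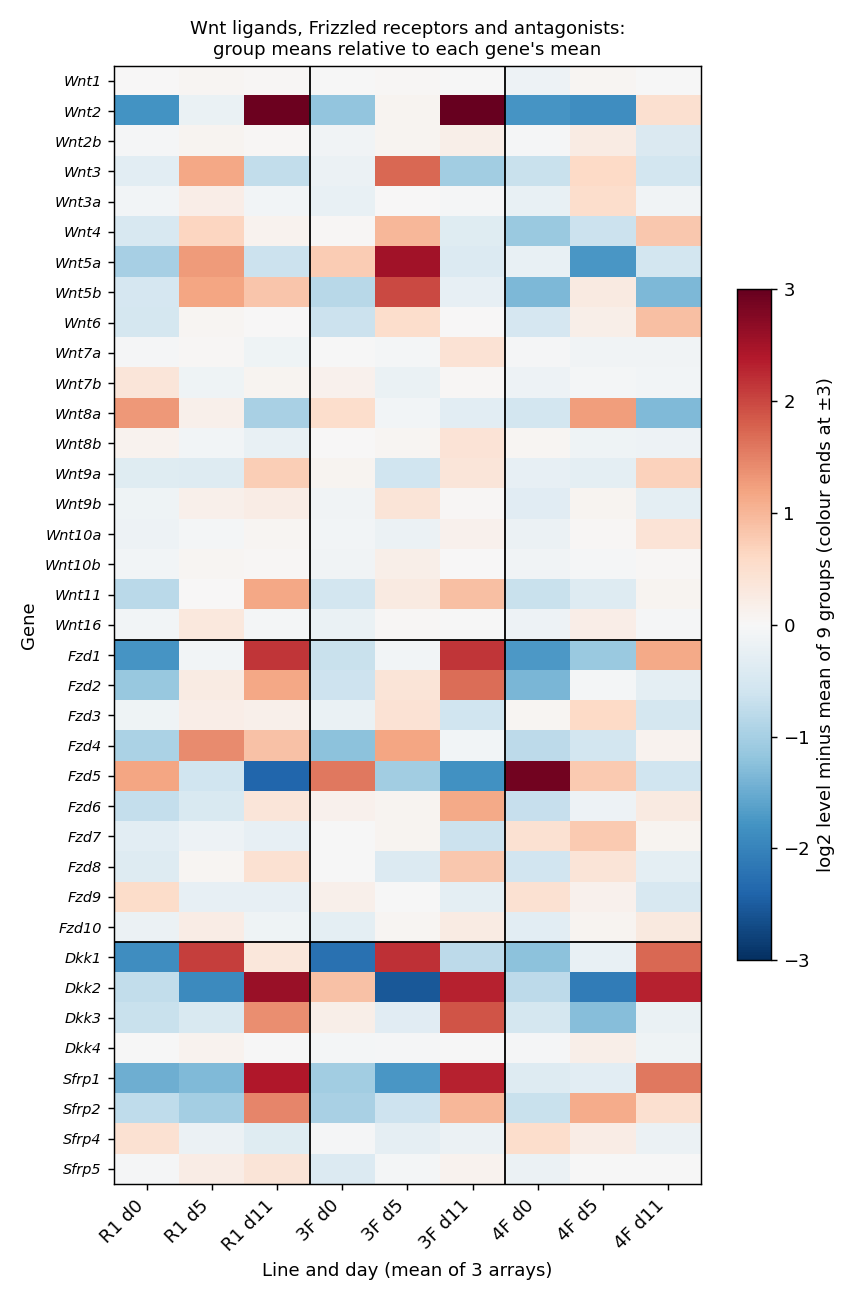
Group means (3 arrays each) of all 37 members, as the log2 level minus the gene's mean over the 9 groups, with columns by line and day and black lines between lines and between ligands, receptors and antagonists. Day 5 columns are red for Wnt3 in every line and for Dkk1 in R1 and 3F, day 11 columns for Wnt2, Fzd1, Dkk2 and Sfrp1, and Fzd5 goes from red to blue.

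Among the ligands, Wnt3 was a day 5 gene. In R1, Wnt3 measured 4.66, 4.44 and 5.03 at day 0, 6.87, 6.36 and 5.36 at day 5 and 4.33, 4.56 and 3.95 at day 11. In 3F, Wnt3 measured 5.27, 4.53 and 4.73 at day 0, 7.15, 6.37 and 6.74 at day 5 and 4.11, 3.86 and 3.97 at day 11. In 4F, Wnt3 measured 3.95, 4.55 and 4.56 at day 0, 4.91, 4.99 and 6.997 at day 5 and 4.31, 4.66 and 4.48 at day 11. Every R1 and 3F array of day 5 lay above all arrays of day 0 and day 11 of its line, and in 4F replicate 3 of day 5 stood about 2 log2 units above its partners. Wnt3 rose by 1.48 ± 0.41 (adjusted p = 0.00599) in R1 and by 1.91 ± 0.41 (adjusted p = 0.000896) in 3F, then fell by 1.92 ± 0.41 (adjusted p = 0.000963) and 2.77 ± 0.41 (adjusted p = 1e-05). These 4 calls held in every alternative tried. In 4F the rise was 1.28 ± 0.41 (adjusted p = 0.0263) and the fall 1.15 ± 0.41 (adjusted p = 0.0286). Without replicate 3 of day 5 they were 0.60 and -0.47, and neither was called. The rise was not called without replicate 1 of day 0 either (1.08), nor was the fall without replicate 1 or 3 of day 11 (-1.06 and -1.15). Both calls also ended with array weights, on the compared arrays alone and with a replicate block, and the rise with the RNA quality covariate. The mean of 7 primitive streak markers went from 6.72 ± 0.36 to 9.32 ± 1.04 and 6.29 ± 0.30 in R1, from 6.68 ± 0.13 to 9.18 ± 0.72 and 6.52 ± 0.29 in 3F, and from 6.35 ± 0.11 to 8.16 ± 1.63 and 6.10 ± 0.06 in 4F (SD, n = 3). In 4F at day 5 this mean was 7.13 and 7.30 in replicates 1 and 2 and 10.04 in replicate 3, so the array that stood apart for Wnt3, Wnt5a, Wnt5b and Dkk1 also stood apart in streak markers. The part of the cells behind these markers in the member values was not tested. Over the 27 arrays it had r = 0.95 with Wnt3, as a description across arrays that share lines and days. The Wnt3 probe set belongs to a class that can also bind related transcripts, and it is the gene's only one here.

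Wnt5a and Wnt5b, ligands best known for signals outside the beta-catenin branch, were also highest at day 5 in 3F. In R1, Wnt5b measured 6.60, 6.37 and 7.10 at day 0, 8.41, 8.97 and 7.75 at day 5 and 8.27, 8.08 and 7.77 at day 11. In 3F, Wnt5b measured 6.53, 6.22 and 6.33 at day 0, 9.19, 8.73 and 9.63 at day 5 and 6.59, 7.13 and 7.15 at day 11. In 4F, Wnt5b measured 5.63, 6.12 and 5.81 at day 0, 6.42, 6.21 and 9.79 at day 5 and 5.73, 5.98 and 5.86 at day 11. R1 kept its day 5 level to day 11, 3F returned towards day 0, and 4F was high in replicate 3 of day 5 alone. Wnt5b rose by 2.82 ± 0.56 (adjusted p = 0.000412) in 3F and fell again by 2.23 ± 0.56 (adjusted p = 0.00266). The R1 rise of 1.69 ± 0.56 (adjusted p = 0.0203) was not called without replicate 2 of day 0 (1.53) or replicate 2 of day 5 (1.39). The 4F rise of 1.62 ± 0.56 (adjusted p = 0.0397) shrank to 0.46 without replicate 3 of day 5 and was not called without any one of the day 0 arrays either (1.51 to 1.76). It was also lost with cyclic loess, on the mean of probe sets, with array weights, with the RNA quality covariate, on the compared arrays alone and with a replicate block. The 4F fall by day 11, 1.62 ± 0.56 (adjusted p = 0.0244), went to -0.46 without that replicate, and its call also ended without replicate 1 (-1.55) or replicate 3 (-1.62) of day 11. The same alternatives ended it, apart from cyclic loess.

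In R1, Wnt5a measured 7.68, 6.65 and 6.83 at day 0, 8.85, 9.02 and 10.10 at day 5 and 7.95, 7.37 and 6.89 at day 11. In 3F, Wnt5a measured 8.73, 8.46 and 9.20 at day 0, 9.88, 10.90 and 10.93 at day 5 and 7.44, 7.47 and 7.98 at day 11. In 4F, Wnt5a measured 8.53, 7.21 and 7.75 at day 0, 4.83, 5.01 and 9.04 at day 5 and 7.01, 7.91 and 7.58 at day 11. The lowest 2 of the 27 values were replicates 1 and 2 of 4F at day 5, while replicate 3 of that group lay among the R1 values of day 5. Wnt5a rose by 2.27 ± 0.70 (adjusted p = 0.0134) in R1. The call ended without replicate 2 of day 0 (2.07) or replicate 3 of day 5 (1.88). In 3F the value was 1.77 ± 0.70 (adjusted p = 0.0584), not called, and the later fall of 2.94 ± 0.70 (adjusted p = 0.00169) was called. The R1 fall of 1.92 ± 0.70 (adjusted p = 0.0434) was not called without any one of 5 of its 6 arrays (-2.16 to -1.53), replicate 1 of day 11 being the exception, nor with cyclic loess or the RNA quality covariate. In 4F the value by day 5 was -1.54 ± 0.70 (adjusted p = 0.124), not called, and without replicate 3 of day 5 it was a called fall of 2.91. From day 5 to day 11 it was 1.21 ± 0.70 (adjusted p = 0.182), not called, and without that replicate a called rise of 2.58.

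Wnt8a, a canonical ligand of the early streak, went opposite ways in R1 and 4F. In R1, Wnt8a measured 6.71, 7.03 and 7.55 at day 0, 6.72, 6.05 and 5.07 at day 5 and 4.89, 4.75 and 4.79 at day 11. In 3F, Wnt8a measured 6.63, 6.02 and 6.28 at day 0, 6.29, 5.27 and 5.57 at day 5 and 6.21, 5.02 and 5.17 at day 11. In 4F, Wnt8a measured 4.96, 5.24 and 5.54 at day 0, 6.93, 6.76 and 7.42 at day 5 and 4.33, 4.49 and 4.59 at day 11. All 3 arrays of 4F at day 5 lay above those of 4F at day 0 and day 11, and in R1 the day 0 arrays were the highest save for a near tie with replicate 1 of day 5. Wnt8a rose by 1.79 ± 0.34 (adjusted p = 0.000668) in 4F by day 5 and then fell by 2.56 ± 0.34 (adjusted p = 5.06e-06), and these calls held without replicate 3. In R1 it fell by 2.29 ± 0.34 (adjusted p = 9.1e-06) over 11 days. The first step in R1, 1.15 ± 0.34 (adjusted p = 0.0116) lower at day 5, was not called without replicate 3 of day 0 (-0.92) or of day 5 (-0.71), with array weights, on the compared arrays alone or with a replicate block. In 3F, Wnt8a was at -0.60 ± 0.34 (adjusted p = 0.218) by day 5 and no change was called. The change to day 5 differed between 4F and R1 by 2.94 ± 0.49 (adjusted p = 0.00155) and between 4F and 3F by 2.39 ± 0.49 (adjusted p = 0.00599).

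**Figure D2:**
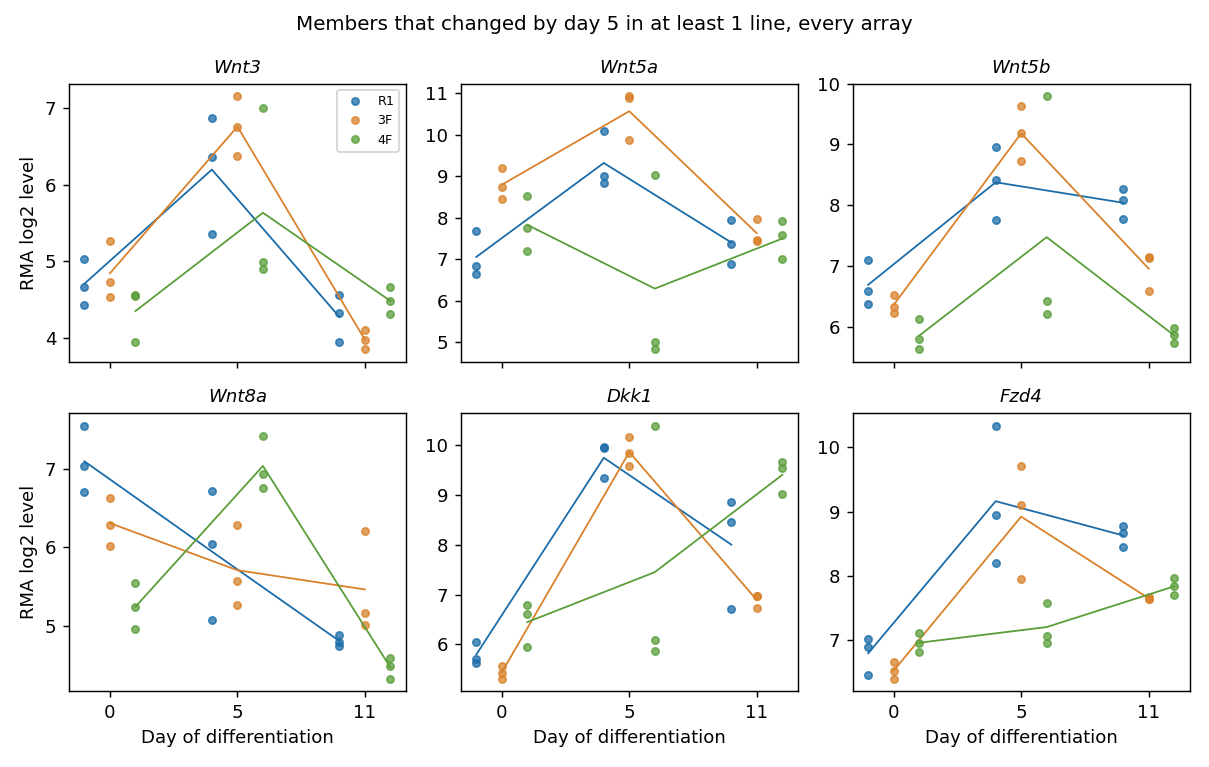
RMA log2 level of 6 members on every array against day of differentiation (days drawn evenly spaced, lines offset sideways), with a point per array and lines through the group means. Wnt3 and Dkk1 peak at day 5 in R1 and 3F, Wnt8a rises in 4F alone, and 1 array of 4F at day 5 sits far above its 2 partners for Wnt3, Wnt5a, Wnt5b and Dkk1.

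Wnt2, a ligand of early cardiac and lung mesoderm, had the largest rise among the ligands. In R1, Wnt2 measured 5.48, 6.39 and 5.81 at day 0, 7.50, 7.78 and 7.16 at day 5 and 10.86, 10.25 and 10.78 at day 11. In 3F, Wnt2 measured 6.39, 6.14 and 6.91 at day 0, 7.85, 7.44 and 7.98 at day 5 and 10.42, 11.11 and 11.36 at day 11. In 4F, Wnt2 measured 5.81, 5.61 and 6.31 at day 0, 5.44, 4.91 and 7.11 at day 5 and 7.86, 7.67 and 8.95 at day 11. The R1 and 3F arrays of day 11 all exceeded 10, and the 4F arrays of day 11 lay between 7.67 and 8.95. By day 11 Wnt2 had risen by 4.74 ± 0.42 (adjusted p = 6.93e-09) in R1, 4.48 ± 0.42 (adjusted p = 1.03e-08) in 3F and 2.25 ± 0.42 (adjusted p = 0.000124) in 4F. The 4F call ended with the RNA quality index as a covariate (2.19). It was lower in 4F than in R1 by 2.47 ± 0.42 (adjusted p = 0.000186) at day 11 and lower than in 3F by 2.80 ± 0.42 (adjusted p = 4.26e-05), and neither call was lost in any alternative. Over the 27 arrays Wnt2 had r = 0.89 with the mean of 9 cardiac markers, 0.82 with endothelial, 0.82 with erythroid and 0.79 with endoderm markers, and -0.87 with the pluripotency markers. These values do not single out one of the lists.

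Wnt11, a ligand of heart and limb development, rose with it in R1 and 3F. In R1, Wnt11 measured 6.47, 6.32 and 6.78 at day 0, 7.49, 7.32 and 7.24 at day 5 and 8.39, 8.45 and 8.64 at day 11. In 3F, Wnt11 measured 6.80, 6.79 and 6.80 at day 0, 7.63, 7.59 and 7.64 at day 5 and 8.43, 8.27 and 8.03 at day 11. In 4F, Wnt11 measured 6.90, 6.37 and 6.71 at day 0, 6.43, 6.74 and 7.69 at day 5 and 7.15, 7.37 and 7.76 at day 11. Groups of successive days did not overlap in R1 and 3F, and in 4F replicate 3 of day 5 reached the level of day 11. The rises by day 11 were 1.97 ± 0.22 (adjusted p = 1.86e-07) in R1 and 1.45 ± 0.22 (adjusted p = 9.99e-06) in 3F, and the 4F value was 0.76 ± 0.22 (adjusted p = 0.00722), below 2-fold. The change to day 11 was smaller in 4F than in R1 by 1.21 ± 0.31 (adjusted p = 0.0124), a call that ended with the RNA quality covariate (-1.13).

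Wnt4, a ligand of kidney and gonad development, and Wnt6, known in ectoderm and heart, ended highest in 4F. In R1, Wnt4 measured 7.91, 7.58 and 8.47 at day 0, 8.70, 9.82 and 8.84 at day 5 and 8.81, 8.55 and 8.38 at day 11. In 3F, Wnt4 measured 8.95, 8.10 and 8.52 at day 0, 9.33, 9.74 and 9.37 at day 5 and 8.16, 8.34 and 7.86 at day 11. In 4F, Wnt4 measured 7.61, 7.05 and 7.46 at day 0, 7.19, 7.48 and 8.85 at day 5 and 9.60, 9.58 and 8.67 at day 11. Day 5 was the highest day in 3F and day 11 in 4F, where replicate 3 of day 5 lay within the day 11 range. Wnt4 rose by 1.91 ± 0.36 (adjusted p = 0.000144) in 4F from day 0 to day 11. In 3F it fell by 1.36 ± 0.36 (adjusted p = 0.00444) after day 5. The R1 rise to day 5 of 1.13 ± 0.36 (adjusted p = 0.0168) was not called without replicate 2 of day 0 (0.93) or of day 5 (0.78), on the mean of probe sets, with the RNA quality covariate or with a replicate block. In R1, Wnt6 measured 6.62, 6.90 and 6.86 at day 0, 7.34, 7.61 and 7.23 at day 5 and 7.41, 7.30 and 7.30 at day 11. In 3F, Wnt6 measured 6.79, 6.69 and 6.54 at day 0, 7.64, 7.88 and 8.05 at day 5 and 8.33, 7.03 and 6.70 at day 11. In 4F, Wnt6 measured 6.87, 6.93 and 6.67 at day 0, 7.06, 7.20 and 8.23 at day 5 and 8.31, 8.66 and 7.76 at day 11. All day 5 and day 11 arrays of 4F lay above its day 0 arrays, and replicate 1 of 3F at day 11 stood above its partners. Wnt6 rose by 1.18 ± 0.31 (adjusted p = 0.00512) in 3F by day 5 and by 1.42 ± 0.31 (adjusted p = 0.000622) in 4F by day 11. With the RNA quality index as a covariate the 4F rises were no longer called, at 0.65 for Wnt4 and 0.64 for Wnt6.

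The other 11 ligands moved little. Wnt9a rose in R1 by day 11, by 1.10 ± 0.21 (adjusted p = 0.000143), a call that ended without replicate 3 of day 0 (0.96) or of day 11 (0.99), with array weights (0.97) and on the mean of probe sets (0.47). From day 5 to day 11 it rose in R1 by 1.13 ± 0.21 (adjusted p = 0.000285), a call that no left-out array ended and that was lost on the mean of probe sets (0.55). Wnt1, Wnt2b, Wnt3a, Wnt7a, Wnt7b, Wnt8b, Wnt9b, Wnt10a, Wnt10b and Wnt16 were called in no comparison, and their 9 group means spanned 0.22 (Wnt1) to 0.74 (Wnt3a). Among them Wnt3a, a canonical ligand of the late streak and tailbud, measured 6.22 and 6.48 in replicates 1 and 2 of 4F at day 5 and 7.58 in replicate 3. In the RefSeq gene order (GRCm38.p6), 4 pairs of ligands are next to each other. Over the 27 arrays r was 0.67 for Wnt6 and Wnt10a, 0.53 for Wnt3 and Wnt9b, 0.35 for Wnt1 and Wnt10b and -0.24 for Wnt3a and Wnt9a.

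Among the receptors, Fzd5 fell in every line. In R1, Fzd5 measured 10.71, 9.43 and 9.23 at day 0, 8.67, 8.31 and 7.01 at day 5 and 6.43, 6.08 and 6.14 at day 11. In 3F, Fzd5 measured 10.15, 10.40 and 9.97 at day 0, 8.41, 7.24 and 7.05 at day 5 and 6.70, 6.61 and 7.05 at day 11. In 4F, Fzd5 measured 11.60, 11.66 and 11.21 at day 0, 9.63, 9.93 and 8.57 at day 5 and 7.82, 8.68 and 7.53 at day 11. Day 0 lay above the later days in every line, days 5 and 11 were apart in R1, came within 0.1 in 3F and overlapped in 4F, and 4F had the highest group mean at each day. Fzd5 fell by 3.57 ± 0.43 (adjusted p = 5.36e-07) in R1, 3.38 ± 0.43 (adjusted p = 9.32e-07) in 3F and 3.48 ± 0.43 (adjusted p = 8.58e-07) in 4F over 11 days, and these calls held in every alternative. The first 5 days accounted for 1.79 ± 0.43 (adjusted p = 0.00227), 2.61 ± 0.43 (adjusted p = 6.77e-05) and 2.11 ± 0.43 (adjusted p = 0.00116). The level in 4F was above R1 at day 11 by 1.80 ± 0.43 (adjusted p = 0.00392), a call lost on the mean of the gene's probe sets (0.99) and with the RNA quality covariate (1.49). It was above 3F at day 5 by 1.81 ± 0.43 (adjusted p = 0.00495), and with that covariate this was 1.60 and not called. Fzd5 had r = 0.95 with the pluripotency markers and -0.93 with the cardiac markers over the 27 arrays, which share lines and days. The pluripotency mean was lower at day 11 than at day 0 in every line.

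Fzd1 and Fzd2 went the other way. In R1, Fzd1 measured 7.63, 6.77 and 6.93 at day 0, 8.75, 8.59 and 9.06 at day 5 and 10.86, 10.71 and 11.57 at day 11. In 3F, Fzd1 measured 8.26, 7.96 and 8.41 at day 0, 8.86, 8.90 and 8.69 at day 5 and 10.60, 10.61 and 11.91 at day 11. In 4F, Fzd1 measured 7.63, 6.73 and 7.15 at day 0, 7.44, 7.52 and 8.39 at day 5 and 9.34, 10.02 and 10.74 at day 11. All day 11 arrays lay above all arrays of earlier days in each line. Fzd1 rose over 11 days by 3.94 ± 0.36 (adjusted p = 1.16e-08) in R1, 2.83 ± 0.36 (adjusted p = 9.15e-07) in 3F and 2.86 ± 0.36 (adjusted p = 1.04e-06) in 4F, and these calls held in every alternative. In R1, Fzd2 measured 9.30, 9.13 and 9.26 at day 0, 10.49, 10.33 and 10.99 at day 5 and 11.37, 11.53 and 11.71 at day 11. In 3F, Fzd2 measured 9.87, 9.51 and 9.86 at day 0, 10.83, 10.79 and 10.67 at day 5 and 11.86, 11.68 and 12.60 at day 11. In 4F, Fzd2 measured 9.16, 8.79 and 9.06 at day 0, 10.41, 10.50 and 10.05 at day 5 and 9.60, 10.19 and 10.46 at day 11. R1 and 3F climbed at both steps, while 4F at day 11 overlapped its day 5 level. Fzd2 rose over 11 days by 2.30 ± 0.22 (adjusted p = 2.19e-08) in R1 and 2.30 ± 0.22 (adjusted p = 1.64e-08) in 3F. The rise to day 5 in 3F, 1.01 ± 0.22 (adjusted p = 0.00117), was not called without replicate 2 of day 0 (0.89) or replicate 1 or 2 of day 5 (0.98 and 0.998), with array weights or on the mean of probe sets. In 4F the rise over 11 days was 1.08 ± 0.22 (adjusted p = 0.000351), which was not called without replicate 2 of day 0 (0.97), without replicate 3 of day 11 (0.89) or with arrays centred on their medians (0.96). Wnt2 and Fzd1 had the highest correlation among the 37 members, r = 0.94 over the 27 arrays.

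**Figure D3:**
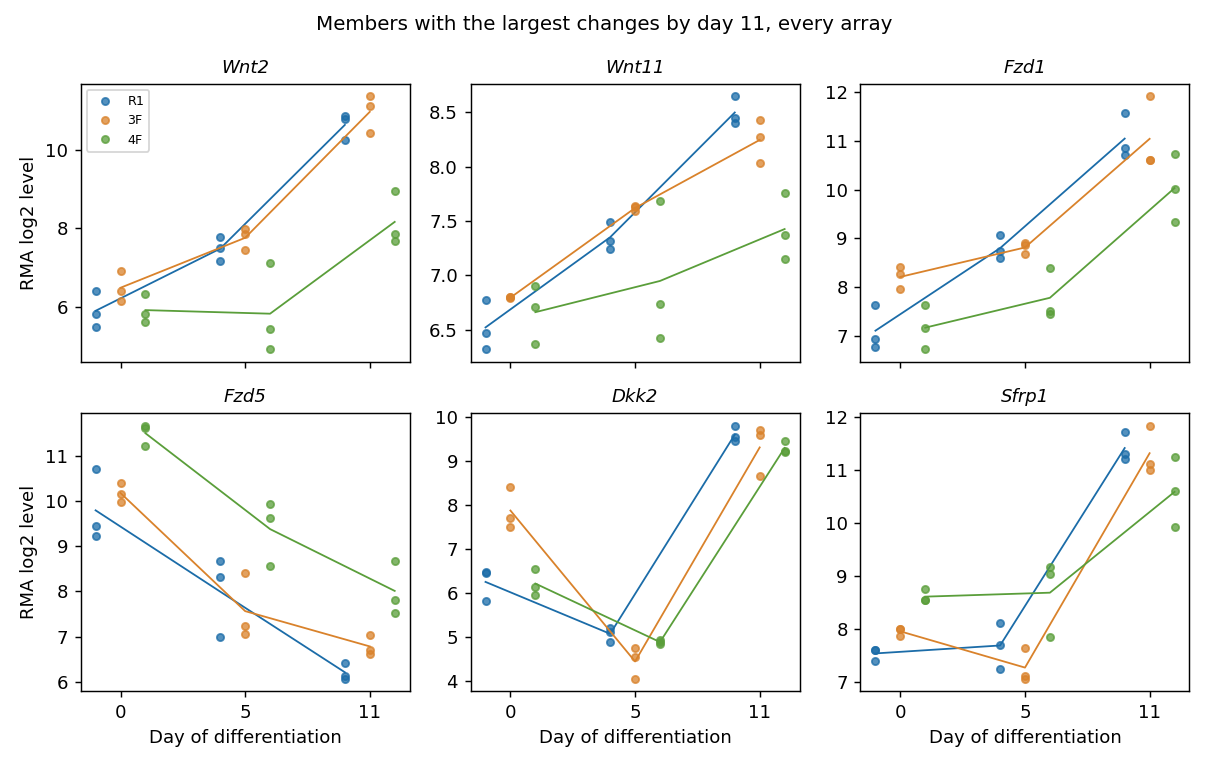
RMA log2 level of 6 members on every array against day of differentiation (days drawn evenly spaced), with a point per array and lines through the group means. Wnt2, Wnt11, Fzd1, Dkk2 and Sfrp1 end highest at day 11 in R1 and 3F, Fzd5 falls in all lines, and the green 4F points of Wnt2 at day 11 lie below 9 where R1 and 3F exceed 10.

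Fzd4, the receptor for Norrin as well as for Wnt proteins, rose early in R1 and 3F. In R1, Fzd4 measured 6.90, 7.02 and 6.46 at day 0, 8.19, 8.95 and 10.34 at day 5 and 8.78, 8.67 and 8.45 at day 11. In 3F, Fzd4 measured 6.51, 6.40 and 6.66 at day 0, 7.95, 9.72 and 9.10 at day 5 and 7.64, 7.67 and 7.64 at day 11. In 4F, Fzd4 measured 6.81, 6.96 and 7.11 at day 0, 7.58, 7.07 and 6.95 at day 5 and 7.70, 7.97 and 7.84 at day 11. In R1 and 3F the day 5 arrays lay above all day 0 arrays, and in 4F days 0 and 5 overlapped. Fzd4 rose by 2.37 ± 0.38 (adjusted p = 3.81e-05) in R1 and 2.40 ± 0.38 (adjusted p = 3.63e-05) in 3F, and the 4F value was 0.24 ± 0.38 (adjusted p = 0.719). At day 5 the level in 4F was below R1 by 1.96 ± 0.38 (adjusted p = 0.00129) and below 3F by 1.72 ± 0.38 (adjusted p = 0.00249). The first of these was not called on the compared arrays alone (-1.96) or with a replicate block (-1.96), and the second with the RNA quality covariate (-1.19). By day 11 Fzd4 was above day 0 by 1.84 ± 0.38 (adjusted p = 0.000321) in R1. The day 11 arrays of 3F and 4F also lay above their day 0 arrays, and those of 3F lay below its day 5 arrays.

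Fzd6, which acts in planar polarity, and Fzd8 changed by little over 2-fold. In R1, Fzd6 measured 8.01, 8.21 and 8.49 at day 0, 8.77, 8.76 and 7.98 at day 5 and 9.17, 9.29 and 9.52 at day 11. In 3F, Fzd6 measured 9.10, 9.04 and 9.15 at day 0, 9.10, 8.97 and 9.01 at day 5 and 9.88, 10.11 and 10.33 at day 11. In 4F, Fzd6 measured 8.26, 8.34 and 8.22 at day 0, 8.91, 8.73 and 8.79 at day 5 and 9.32, 9.18 and 9.18 at day 11. Day 11 was the highest day in every line, and 3F the highest line at day 11. The rise by day 11 was 1.09 ± 0.17 (adjusted p = 1.06e-05) in R1 and 1.01 ± 0.17 (adjusted p = 2.57e-05) in 3F, both close to 2-fold. Without replicate 3 of day 11 these were 0.99 and 0.90. Without replicate 1 of day 0 the R1 value was 0.98, and without replicate 2 of day 0 the 3F value was 0.98, none of them called. In R1, Fzd8 measured 6.78, 6.55 and 6.49 at day 0, 7.43, 6.93 and 6.79 at day 5 and 7.35, 7.24 and 7.77 at day 11. In 3F, Fzd8 measured 7.17, 6.94 and 6.83 at day 0, 7.01, 6.45 and 6.34 at day 5 and 8.24, 7.35 and 7.83 at day 11. In 4F, Fzd8 measured 6.51, 6.40 and 6.36 at day 0, 7.61, 7.59 and 6.94 at day 5 and 6.91, 6.57 and 6.64 at day 11. The day 11 arrays of 3F lay above its day 5 arrays, and those of 4F below its day 5 arrays. Fzd8 rose after day 5 in 3F, by 1.21 ± 0.23 (adjusted p = 0.000175), and was at 0.99 without replicate 1 of day 11. Averaging a gene's probe sets ended these calls for Fzd6 and Fzd8, whose other probe sets were dimmer. The RNA quality covariate ended both Fzd6 calls, array weights the R1 call and median centring the 3F call.

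The remaining receptors were steadier. Fzd3 fell after day 5 by 1.13 ± 0.27 (adjusted p = 0.00175) in 4F and by 1.03 ± 0.27 (adjusted p = 0.00365) in 3F. The mean of its 6 probe sets gave -0.33 and -0.33, and cyclic loess -0.89 and -0.78, none of them called. The 3F call was also lost in 3 other alternatives and without replicate 3 of day 5 (-0.99) or replicate 1 (-0.70) or replicate 3 (-0.99) of day 11. Fzd7, a receptor known in pluripotent cells, ran from 10.1 to 12.2 over the 27 arrays with no call. Fzd9 and Fzd10 were also called in no comparison, with group means spanning 1.04 and 0.62.

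Among the antagonists, Dkk1, an inhibitor of the LRP co-receptors and itself a target of Wnt signalling, rose most by day 5. In R1, Dkk1 measured 5.62, 5.71 and 6.06 at day 0, 9.94, 9.96 and 9.34 at day 5 and 8.86, 8.45 and 6.70 at day 11. In 3F, Dkk1 measured 5.44, 5.31 and 5.57 at day 0, 9.83, 9.58 and 10.17 at day 5 and 6.97, 6.98 and 6.72 at day 11. In 4F, Dkk1 measured 5.94, 6.61 and 6.79 at day 0, 5.88, 6.08 and 10.39 at day 5 and 9.54, 9.65 and 9.02 at day 11. Every day 5 array of R1 and 3F exceeded 9, whereas in 4F replicates 1 and 2 of day 5 were near their day 0 level and replicate 3 was the highest of all 27. At day 11 the 4F arrays were above 9 and replicate 3 of R1 was below its partners. Dkk1 rose by 3.95 ± 0.72 (adjusted p = 0.000152) in R1 and 4.42 ± 0.72 (adjusted p = 5.08e-05) in 3F, and these calls held in every alternative. In 4F the value at day 5 was 1.002 ± 0.72 (adjusted p = 0.36), not called, and without replicate 3 of day 5 it turned to -0.47, also not called. After day 5 Dkk1 rose in 4F by 1.95 ± 0.72 (adjusted p = 0.0349), or by 3.42 without that replicate. This call ended without replicate 1 (1.17) or 2 (1.27) of day 5 or replicate 1 (1.88) or 2 (1.83) of day 11, with the RNA quality covariate (0.57), on the compared arrays alone and with a replicate block. In 4F it rose by 2.96 ± 0.72 (adjusted p = 0.00173) over 11 days, or 1.17 and not called with the RNA quality covariate. In 3F Dkk1 fell after day 5 by 2.97 ± 0.72 (adjusted p = 0.00201), and at day 11 4F was above 3F by 2.51 ± 0.72 (adjusted p = 0.011), a call that the covariate ended (1.04). The R1 level at day 11 was above day 0 by 2.21 ± 0.72 (adjusted p = 0.0144) and was not called without replicate 1 (1.78) or replicate 2 (1.98) of day 11 or with the covariate.

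**Figure D4:**
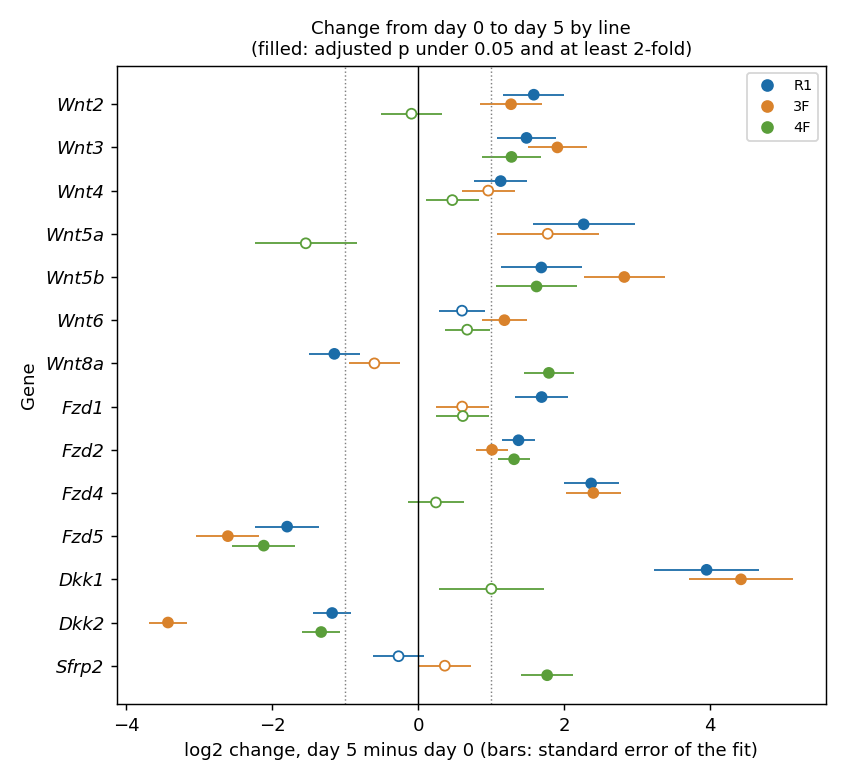
Log2 change from day 0 to day 5 (day 5 minus day 0) in R1, 3F and 4F for the 14 members called in at least 1 of these comparisons, with the standard error of the fit as bars, filled symbols for called changes and dotted lines at 2-fold. Dkk1 and Fzd4 are far right of 0 in R1 and 3F and near 1 or below in 4F. Wnt8a and Sfrp2 have called rises in 4F alone, and Wnt8a is left of 0 and called in R1. Fzd5 and Dkk2 are left of 0 in all lines.

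Dkk2, a second ligand of the LRP co-receptors, fell and then rose in every line. In R1, Dkk2 measured 6.46, 5.82 and 6.49 at day 0, 4.90, 5.22 and 5.12 at day 5 and 9.81, 9.45 and 9.54 at day 11. In 3F, Dkk2 measured 7.51, 7.70 and 8.42 at day 0, 4.06, 4.75 and 4.54 at day 5 and 8.65, 9.70 and 9.58 at day 11. In 4F, Dkk2 measured 6.15, 5.96 and 6.56 at day 0, 4.94, 4.85 and 4.89 at day 5 and 9.20, 9.46 and 9.23 at day 11. All arrays of day 5 lay below all arrays of day 0, and all arrays of day 11 above both, in each line. The 9 arrays of day 5 lay between 4.06 and 5.22, all below the 40th percentile of all values (5.375), so the sizes of the falls, of the later rises and of the difference between falls are taken against dim signals. The fall to day 5 was 1.18 ± 0.26 (adjusted p = 0.000918) in R1, 3.43 ± 0.26 (adjusted p = 1.54e-09) in 3F and 1.33 ± 0.26 (adjusted p = 0.000695) in 4F, the R1 value being -0.98 and not called with array weights. The rise from day 5 to day 11 was 4.52 ± 0.26 (adjusted p = 1.03e-10), 4.86 ± 0.26 (adjusted p = 1.84e-11) and 4.40 ± 0.26 (adjusted p = 1.05e-10). The undifferentiated 3F cells had more Dkk2 than R1 by 1.62 ± 0.26 (adjusted p = 0.000508) and 4F had less than 3F by 1.66 ± 0.26 (adjusted p = 0.000392), and the fall in 3F was larger than in R1 by 2.25 ± 0.36 (adjusted p = 0.00413). Day 0 cells were grown on feeders, and the mean of 10 fibroblast markers also fell and then rose (SD, n = 3). In R1 it went from 9.72 ± 0.44 to 6.69 ± 0.96 and 11.97 ± 0.28. In 3F it went from 11.23 ± 0.48 to 6.69 ± 0.42 and 12.07 ± 0.29, and in 4F from 10.23 ± 0.52 to 6.25 ± 0.13 and 10.04 ± 0.81. The marker mean of 4F at day 11 was thus near that of day 0, whereas its Dkk2 arrays of day 11 all lay above day 0. Over the 27 arrays r between Dkk2 and this mean was 0.87. The part of feeder or other fibroblast RNA in the Dkk2 values was not tested.

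Dkk3, a relative that does not share the LRP-binding role of Dkk1, rose in R1 and 3F by day 11. In R1, Dkk3 measured 7.85, 7.12 and 6.81 at day 0, 6.52, 7.06 and 8.84 at day 5 and 9.20, 9.20 and 9.57 at day 11. In 3F, Dkk3 measured 7.70, 8.03 and 8.64 at day 0, 6.63, 8.36 and 7.82 at day 5 and 9.55, 9.72 and 10.23 at day 11. In 4F, Dkk3 measured 7.71, 7.36 and 7.17 at day 0, 6.58, 6.68 and 6.76 at day 5 and 7.01, 7.43 and 8.80 at day 11. The day 11 arrays of R1 and 3F lay above their day 0 arrays, while in 4F the groups overlapped. Dkk3 rose by 2.07 ± 0.49 (adjusted p = 0.00129) in R1 and 1.71 ± 0.49 (adjusted p = 0.00624) in 3F over 11 days, and the 4F value was 0.34 ± 0.49 (adjusted p = 0.625). Dkk3 was lower in 4F than in 3F by 2.08 ± 0.49 (adjusted p = 0.0028) at day 11, with the sign turned to 0.85 by the RNA quality covariate. Dkk3 had r = 0.74 with the fibroblast, 0.78 with the endothelial and -0.77 with the primed epiblast markers.

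Sfrp1 and Sfrp2 bind Wnt proteins outside the cell. In R1, Sfrp1 measured 7.61, 7.60 and 7.40 at day 0, 8.11, 7.70 and 7.24 at day 5 and 11.30, 11.21 and 11.72 at day 11. In 3F, Sfrp1 measured 7.99, 8.01 and 7.86 at day 0, 7.64, 7.11 and 7.06 at day 5 and 10.996, 11.11 and 11.84 at day 11. In 4F, Sfrp1 measured 8.75, 8.53 and 8.54 at day 0, 9.17, 9.03 and 7.85 at day 5 and 9.92, 10.59 and 11.24 at day 11. All day 11 arrays lay above all arrays of earlier days of their line. Sfrp1 rose over 11 days by 3.88 ± 0.32 (adjusted p = 2.16e-09) in R1, 3.36 ± 0.32 (adjusted p = 1.08e-08) in 3F and 1.98 ± 0.32 (adjusted p = 2.01e-05) in 4F, the 4F call being lost on the mean of its 5 probe sets (0.89). In R1, Sfrp2 measured 7.06, 7.37 and 7.10 at day 0, 7.55, 6.88 and 6.30 at day 5 and 9.12, 9.38 and 9.74 at day 11. In 3F, Sfrp2 measured 6.73, 7.28 and 6.87 at day 0, 7.50, 7.06 and 7.41 at day 5 and 8.40, 8.79 and 9.65 at day 11. In 4F, Sfrp2 measured 7.32, 7.22 and 7.30 at day 0, 9.35, 9.23 and 8.55 at day 5 and 7.66, 8.25 and 9.33 at day 11. In 4F the day 5 arrays, all 3 of them, were above the day 5 arrays of the other lines. Sfrp2 had risen by 1.77 ± 0.35 (adjusted p = 0.000912) in 4F at day 5, where the values were -0.27 ± 0.35 (adjusted p = 0.619) in R1 and 0.37 ± 0.35 (adjusted p = 0.509) in 3F. By day 11 the rise over day 0 was 2.24 ± 0.35 (adjusted p = 1.57e-05) in R1 and 1.99 ± 0.35 (adjusted p = 6.18e-05) in 3F. In 4F it was 1.13 ± 0.35 (adjusted p = 0.0116), not called without replicate 3 of day 11 (0.68), with array weights or with the RNA quality covariate. At day 5 the level in 4F was above R1 by 2.14 ± 0.35 (adjusted p = 0.000349) and above 3F by 1.72 ± 0.35 (adjusted p = 0.00139), and both calls held in every alternative. Sfrp4, Sfrp5 and Dkk4 were called in no comparison.

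Between lines, few members were called in 3F against R1 and more in 4F against either line at days 5 and 11. At day 0, 1 member was higher (2.21%) and 0 lower (0.879%) in 3F than in R1 (3.09% either way). In 4F, 1 member was higher (0.643%) and 1 lower (0.478%) than in R1 (1.12%), and 0 members were higher (0.885%) and 1 lower (1.09%) than in 3F (1.98%). These were Dkk2, Wnt8a and Fzd5: Wnt8a was lower in 4F than in R1 by 1.85 ± 0.34 (adjusted p = 0.00325), and Fzd5 higher by 1.70 ± 0.43 (adjusted p = 0.0389), a call that ended without any one of 5 of its 6 arrays (1.42 to 1.84), replicate 1 of R1 being the exception, and with quantile normalization or on the compared arrays alone. At day 5, 0 members were higher (0.22%) and 0 lower (0.154%) in 3F than in R1 (0.374% either way) in the limma fit. There 3 of the 37 had an unadjusted p under 0.05 (8.92% of all genes). At day 11, 0 members were higher (0.231%) and 0 lower (0.786%, and 1.02% either way). At that day 6 of the 37 had an unadjusted p under 0.05 (19.3% of all genes). The lack of calls does not show that the lines were alike: the widest gap at day 5 was that of Wnt5a, 1.25 ± 0.70 (adjusted p = 0.651).

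At day 5, 3 members were higher (2.31%) and 5 lower (3.14%) in 4F than in R1 (5.45% either way). Against 3F, 4 members were higher (2.91%) and 6 lower (4.57%, and 7.48% either way). Without replicate 3 of 4F at day 5 the counts were 4 higher and 8 lower, and 5 higher and 9 lower. Called only without that replicate were Wnt3 (-1.24 against R1 and -1.80 against 3F), Fzd1 (-1.32 and -1.33), Wnt5b (-2.06), Fzd7 (1.24) and Sfrp1 (1.41) against R1, and Wnt11 (-1.04) and Fzd8 (1.002) against 3F, while Wnt8a against R1 was no longer called (0.90). The count against R1 fell to 2 members without replicate 1 or replicate 2 of 4F at day 5, to 3 without replicate 2 and to 5 without replicate 3 of R1 at day 5. Wnt5a was lower in 4F than in 3F by 4.28 ± 0.70 (adjusted p = 0.000159), Wnt4 by 1.64 ± 0.36 (adjusted p = 0.00252) and Wnt2 by 1.93 ± 0.42 (adjusted p = 0.00222), and these 3 calls held in every alternative. Sfrp1 was higher by 1.41 ± 0.32 (adjusted p = 0.00281), and by 0.87 and not called on the mean of its probe sets. The mean of 9 cardiac markers at day 5 was 6.55 ± 0.89 in 4F, 8.54 ± 0.13 in R1 and 8.92 ± 0.17 in 3F (SD, n = 3).

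At day 11, 1 member was higher (2.39%) and 7 lower (5.92%) in 4F than in R1 (8.31% either way). Against 3F, 3 members were higher (5.12%) and 5 lower (4.91%, and 10% either way). Beside Wnt2, Wnt5b was lower in 4F than in R1 by 2.18 ± 0.56 (adjusted p = 0.00581), with the arrays of 4F between 5.73 and 5.98 and those of R1 between 7.77 and 8.27. Fzd2 was lower by 1.45 ± 0.22 (adjusted p = 6.69e-05) than in R1 and by 1.96 ± 0.22 (adjusted p = 1.66e-06) than in 3F, and both calls ended with the RNA quality covariate (-0.68 and -0.79). The count against R1 went to 4 without replicate 3 of R1 or replicate 1 of 4F at day 11, and to 5 without replicate 2 of 4F. Against 3F it went to 5 without replicate 1 or replicate 2 of 4F. Comparisons of 1 line with each of the others share that line's samples.

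The change since day 0 was also compared between lines. By day 5, 0 members were higher (0.181%) and 1 lower (0.192%) for the change in 3F against R1 (0.374% either way). For 4F against R1, 2 members were higher (1.58%) and 2 lower (2.06%, and 3.64% either way), and against 3F, 3 members were higher (1.97%) and 1 lower (1.51%, and 3.47% either way). By day 11, 0 members were higher (0.275%) and 1 lower (1.22%) for the change in 3F against R1 (1.5% either way). For 4F against R1, 1 member was higher (2.47%) and 4 lower (7.03%, and 9.5% either way), and against 3F, 2 members were higher (3.41%) and 2 lower (3.01%, and 6.41% either way). Without replicate 3 of 4F at day 5 the counts for the change to day 5 were 2 higher and 4 lower against R1. Against 3F they were 3 higher and 5 lower. The shares of all genes above are for all arrays and are not given without that replicate. Dkk1 was among the members gained, at -4.42 against R1 and -4.89 against 3F. With that replicate the Dkk1 values were -2.95 ± 1.01 (adjusted p = 0.105) and -3.42 ± 1.01 (adjusted p = 0.0601). For Wnt2 the change to day 11 was smaller in 4F than in R1 by 2.49 ± 0.59 (adjusted p = 0.0074), and for Sfrp1 by 1.90 ± 0.45 (adjusted p = 0.00671), and the RNA quality covariate ended both calls (-2.53 and -1.52).

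Other genes of the pathway were followed in 5 lists. The share of all genes called the same way stands in parentheses. Of 19 known Wnt targets, 8 rose (6.62%) and 1 fell (8.1%) by day 5 in R1, 8 rose (5.04%) and 0 fell (7.4%) in 3F, and 4 rose (2.25%) and 2 fell (4.82%) in 4F, with median changes of 0.69, 0.66 and 0.62 beside -0.02, -0.0039 and 0.02 for all genes. From day 5 to day 11, 0 rose (7.1%) and 10 fell (4.53%) in R1, 0 rose (6.16%) and 12 fell (10.8%) in 3F, and 2 rose (6.66%) and 8 fell (9.16%) in 4F. Without replicate 3 of 4F at day 5, 2 targets rose and 2 fell in 4F by day 5, and 2 rose and 4 fell after it. The share of all genes without that replicate is not given. Dkk1 is on this list. Axin2, a scaffold of the beta-catenin destruction complex and a standard readout of the pathway, rose by 2.48 ± 0.42 in R1, 2.83 ± 0.42 in 3F and 1.90 ± 0.42 in 4F by day 5. Sp5 and Lef1, transcription factors and targets of the pathway, fell after day 5: Sp5 changed by -2.65 ± 0.54, -1.94 ± 0.54 and -2.74 ± 0.54 in R1, 3F and 4F, and Lef1 by -1.87 ± 0.25, -2.50 ± 0.25 and -1.58 ± 0.25. The other step of each of these genes is not given here. Their 4F values are those with all arrays, replicate 3 of day 5 included.

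Of 18 surface partners and secretion genes, 4 rose (6.62%) and 1 fell (8.1%) by day 5 in R1, 3 rose (5.04%) and 2 fell (7.4%) in 3F, and 1 rose (2.25%) and 1 fell (4.82%) in 4F. Rspo3, an R-spondin that strengthens Wnt signals, rose by 4.10 ± 0.65 in R1 and 3.59 ± 0.65 in 3F, and at day 5 it was lower in 4F than in R1, at -2.49 ± 0.65. Wls, the carrier that Wnt proteins need for secretion, was at -2.21 ± 0.43 in the same comparison. Ror1, a co-receptor for Wnt5a, rose by day 11 in all lines, by 1.87 ± 0.35, 1.87 ± 0.35 and 2.20 ± 0.35 in R1, 3F and 4F. Of 12 other antagonists, 4 rose (11.4%) and 1 fell (12.2%) by day 11 in R1, 1 rose (7.55%) and 1 fell (16%) in 3F, and 3 rose (6.72%) and 1 fell (14.1%) in 4F. Frzb, a relative of the Sfrp proteins, rose by 1.95 ± 0.62 in R1, and Apcdd1, a membrane inhibitor, by 3.57 ± 0.48 in R1 and 2.89 ± 0.48 in 3F by day 5.

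Of 18 cytoplasmic and nuclear transducers, 5 rose (11.4%) and 0 fell (12.2%) by day 11 in R1, 3 rose (7.55%) and 1 fell (16%) in 3F, and 5 rose (6.72%) and 2 fell (14.1%) in 4F. Bcl9, a beta-catenin partner, rose by 1.70 ± 0.47, 2.17 ± 0.47 and 3.48 ± 0.47 in R1, 3F and 4F. Of 9 planar polarity genes, 3 rose (11.4%) and 0 fell (12.2%) by day 11 in R1, 2 rose (7.55%) and 0 fell (16%) in 3F, and 2 rose (6.72%) and 1 fell (14.1%) in 4F. Prickle2, a cytoplasmic polarity protein, rose in each line, by 3.50 ± 0.38, 3.19 ± 0.38 and 2.24 ± 0.38.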

How the data were processed

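RNA of 27 cultures was measured on Affymetrix arrays. Per the submitters' processing notes, the deposited log2 values were made by RMA, whose version, like the genome build, is not given in the sources used here. No column belonged to an unlisted sample. The values, 3.0 to 15.67, were used as deposited, and arrays have no depth: their number limits the precision.

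Of 45101 probe sets, 34945 had 1 gene symbol. The brightest probe set by mean over 27 arrays stood for each of 18193 genes. Limma 3.58.1 in R 4.3.3 fitted 1 mean per group, and 24 comparisons were made: 9 of days, 9 of lines and 6 of changes between lines. Calls needed an adjusted p (Benjamini-Hochberg over all genes) under 0.05 and at least 2-fold. P-values measure the spread between the arrays of a group, as 1 value per gene shared over all 9 groups. A group with a wider spread, such as 4F at day 5 for Wnt3 and Dkk1, is not given its own. The fit was tested on simulated data.

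The members and the gene lists were chosen with earlier results of these data known. Named members are those called in a comparison of days, by the range of group means: up to 8 ligands, 6 receptors and 6 antagonists in full, the others by ranges. Of the pathway lists, genes with large called changes are named, with Axin2, Sp5 and Lef1 always. The gene T, also on that rule, was not analysed here. Fzd3, Wnt9a and Wnt3a were named after their values were seen.

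Alternatives were median centring, cyclic loess, quantile normalization, dim genes left out (14698 genes kept), the mean of probe sets, array weights, a replicate block, the RNA quality index as a covariate, only the compared arrays, a 1.5-fold limit, a robust fit with a variance trend and each array left out in turn. The labels state no pairing. Same-numbered arrays deviated together, with all 3 correlations over 0.1, in 3 of 18 comparisons: 4F day 11 against day 5 (0.13, 0.10 and 0.15), 4F against R1 at day 0 (0.48, 0.25 and 0.33) and 3F against R1 at day 11 (0.12, 0.49 and 0.39).

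Promoters came from RefSeq (GRCm38.p6) by symbol, for 25 of the 37 members. Figures were drawn with matplotlib 3.10.9 and pandas 2.3.3 (numpy 2.4.6, Python 3.11.15).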

Additional observations from a re-analysis of the deposited data

Results flagged for a closer look

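The change since day 0 differed between lines for 19 pairs of member and comparison, by the interaction term of the limma fit (adjusted p under 0.05 and at least 2-fold). Each value is the first line's change minus the second's.

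By day 5, Dkk2 had changed by -2.25 in 3F relative to R1 and by 2.10 in 4F relative to 3F. Wnt5a (-3.81), Wnt8a (2.94), Fzd4 (-2.13) and Sfrp2 (2.04) differed between 4F and R1. Wnt8a (2.39), Fzd4 (-2.16) and Fzd8 (1.34) differed between 4F and 3F. The Wnt8a and Dkk2 values held in every alternative tried. The others were lost without single arrays: Wnt5a without any one of 7 (-3.85 to -3.07), Fzd4 against R1 without any one of 4 (-2.06 to -1.54) and against 3F without any one of 5 (-2.09 to -1.76), Sfrp2 without any one of 4 (1.73 to 1.94) and Fzd8 without any one of 5 (1.21 to 1.27). The Wnt5a and Fzd4 differences between 4F and R1 were also not called on the compared arrays alone or with a replicate block.

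By day 11, Dkk2 differed by -1.91 between 3F and R1 and by 1.64 between 4F and 3F. Between 4F and R1 the differences were -2.49 for Wnt2, 1.51 for Wnt8a, -1.21 for Wnt11, -1.23 for Fzd2 and -1.90 for Sfrp1. Between 4F and 3F they were -2.23 for Wnt2, 2.30 for Wnt4 and -1.22 for Fzd2. The Dkk2 difference between 3F and R1 was not called on the compared arrays alone or with a replicate block (adjusted p = 0.0837 and 0.0808, limma). None of the 9 differences with 4F at day 11 was called with the RNA quality index as a covariate. The Wnt8a value was also lost without any one of 10 of its 12 arrays (1.29 to 1.58), Wnt2 against 3F without any one of 4 (-2.08 to -1.99), Fzd2 against R1 without replicate 1 of 4F at day 11 (-0.99), and Fzd2 against 3F without that array (-0.98) or replicate 3 of 3F at day 11 (-0.94).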

How the results depend on the processing

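Of 159 member changes called over the 24 comparisons, 90 were called in every alternative other than leaving out an array, 106 without each array in turn and 83 in all of them. The direction turned for 4, all with the RNA quality index as a covariate at day 11: Fzd1 (0.25) and Dkk3 (0.35) in 4F against R1, and Fzd1 (0.92) and Dkk3 (0.85) in 4F against 3F. That index nearly coincides with 4F at day 11. Of 264 counts of members called, 36 moved beyond 1.5 times. At a 1.5-fold limit the count was 17 for 4F day 11 against day 0, 13 for 4F against 3F at day 11, 2 for 3F against R1 and for 4F against 3F at day 0, 1 for 3F against R1 at day 11, and 2 for the day 11 change in 3F against R1. With array weights it was 3 for 3F against R1 and 5 for 4F against 3F at day 0, 1 for 3F against R1 at day 5, 5, 7 and 10 for the day 5 change in 3F against R1, 4F against R1 and 4F against 3F, and 10 for the day 11 change in 4F against R1. With the index as a covariate it was 2 for 3F against R1 and 3 for 4F against 3F at day 0, 1 for 3F against R1 and 3 for 4F against R1 and for 4F against 3F at day 11, 2 for the day 5 and the day 11 change in 3F against R1, and 0 for the day 11 change in 4F against either line. On the compared arrays alone it was 3 for 3F against R1 and 6 for 4F against 3F at day 0, 1 for 4F against R1 at day 5, 5 for 4F against 3F at day 11, 2 for the day 5 change in 4F against R1 and 0 for the day 11 change in 3F against R1. With the replicate block it was 3 for 3F against R1 and 6 for 4F against 3F at day 0, 4 for 4F against R1 at day 5, 2 for the day 5 change in 4F against R1 and 0 for the day 11 change in 3F against R1, and no other count moved beyond 1.5 times under the block. Quantile normalization gave 1 for 4F against R1 at day 0, and the mean of probe sets 2 and 5 for 4F against 3F at days 0 and 11. Calls over all genes also moved with the setting. With array weights they went from 68 to 808 for the day 5 change in 3F against R1. For the day 5 change in 4F they went from 663 to 1661 against R1 and from 632 to 1482 against 3F. With the index they went from 1728 to 246 for the day 11 change in 4F against R1, and from 1167 to 1094 against 3F. At day 0 they went from 562 to 193 for 3F against R1 with the index. The cause was not tested. Centring arrays on their medians moved the median of all genes in 4F from day 0 to day 11 from -0.11 to -0.23. Leaving out 1 array gave 1 to 2 for 3F against R1 at day 0 (2 without replicate 1 of R1), 1 to 2 for 4F against R1 at day 0 (1 without any array but replicate 1 of R1), 2 to 12 for 4F against R1 at day 5, 0 to 1 for 3F against R1 at day 11 (1 without replicate 3 of R1 or replicate 2 or 3 of 3F), 4 to 10 for 4F against R1 and 5 to 11 for 4F against 3F at day 11. For the change to day 5 it gave 1 to 6 in 4F against R1 (1 without replicate 3 of R1 or replicate 2 of 4F at day 5) and 2 to 8 in 4F against 3F (8 without replicate 3 of 4F at day 5). For the change to day 11 it gave 1 to 5 in 3F against R1 (5 without replicate 3 of 3F at day 11), 3 to 8 in 4F against R1 and 2 to 6 in 4F against 3F (3 and 2 without replicate 1 of 4F at day 11).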
